A study of Mus musculus with 13 samples.

Results

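The insulin and insulin-like growth factor (IGF) signalling genes described here were chosen by name. They comprise 10 of the 40787 genes measured: the ligands Igf1 and Igf2, the receptors Igf1r and Insr, the receptor substrates Irs1 and Irs2, and the binding proteins Igfbp2, Igfbp3, Igfbp4, and Igfbp5. Transcriptomes were obtained by RNA sequencing of 13 mouse sciatic nerves, collected 5 d after a unilateral crush (5 days postcrush, dpc). Control nerves comprised 3 injured and 3 contralateral nerves, and RaptorKO nerves comprised 3 injured and 4 contralateral nerves. Both genotypes carried homozygous floxed Rptor alleles on a C57BL/6 background and received tamoxifen at 2 months of age, and surgery followed 2 months after the last injection. Only RaptorKO mice carried a transgene for a tamoxifen-activated Cre in Schwann cells (SCs), so that Rptor was deleted in the adult. Rptor encodes Raptor, a defining subunit of the kinase complex mTORC1. The epineurium was stripped before extraction, but the nerve was otherwise intact tissue, and each library mixes RNA of SCs, macrophages, fibroblasts, perineurial, vascular, and other cells. In such bulk libraries, fewer cells of a type and less RNA per cell cannot be told apart.

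IGF-I and IGF-II bind the IGF-1 receptor, and insulin and IGF-II also bind the insulin receptor. The activated receptors phosphorylate the substrates IRS1 and IRS2, which recruit PI3K, and Akt activated in turn stimulates mTORC1 and keeps FOXO transcription factors out of the nucleus. Secreted IGF binding proteins hold IGFs in the extracellular space and set how much reaches the receptors, and active mTORC1 feeds back to restrain signalling through the IRS proteins. In peripheral nerve, IGFs are known as survival and growth factors of SCs and axons.

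Library totals ranged from 8200458 to 13581775 counts, and levels are given as counts per 1000000 after TMM scaling (CPM). Rptor was at 52.1, 52.5, and 43.7 CPM in the control contralateral nerves and at 24.4, 22.1, 28.0, and 23.3 CPM in the RaptorKO contralateral nerves. In injured nerves, it was at 42.8, 48.6, and 35.0 CPM in controls and at 26.1, 23.2, and 28.6 CPM in RaptorKOs. Every RaptorKO library thus held less Rptor than every control library of the same state, with edgeR log2 fold changes of -1.0 ± 0.12 in contralateral (adjusted p = 5.00e-04) and -0.68 ± 0.15 in injured nerves (adjusted p = 0.0167). SC markers were present in all libraries, with a summed level of 73200 to 95200 CPM in contralateral nerves and 3200 to 5190 CPM in injured nerves, and the list holds myelin genes. None of the 10 SC markers was at 0 in any library. The control contralateral and control injured libraries with replicate number 3 held 15017 and 14462 counts of Xist and 10 and 20 counts of Y-linked genes, whereas the other 11 libraries held at most 17 counts of Xist and at least 1456 of Y-linked genes. Injured and contralateral nerves of a genotype share numbers in their titles, and the study names the contralateral nerves as those corresponding to the injured ones, so equal numbers within a genotype were read as 1 mouse. The labels do not state that different numbers are separate mice, and p-values measure only the spread between these libraries.

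Per kilobase of exon, the binding proteins held both ends of the order of levels in control contralateral nerves. Igfbp5 was highest at 148 ± 12.5 CPM per kb (mean ± SD, n = 3), followed by Igfbp4 at 30.2 ± 5.12, and Igfbp2 was lowest at 0.303 ± 0.197. Igf2 (9.36 ± 4.30), Irs1 (7.48 ± 0.271), Insr (6.14 ± 0.101), Igf1r (5.92 ± 0.457), Irs2 (4.82 ± 0.429), and Igfbp3 (4.06 ± 1.96 CPM per kb) lay between them, and Igf1 was at 1.43 ± 0.106. The SDs of the neighbours Igf2 and Irs1, of Insr and Igf1r, and of Irs2 and Igfbp3 overlapped in this order. In control injured nerves, the 4 binding proteins were the 4 highest members, with Igfbp5 at 751 ± 169, Igfbp4 at 47.6 ± 3.81, Igfbp2 at 42.8 ± 3.03, and Igfbp3 at 40.3 ± 8.59 CPM per kb. The levels of Igfbp4, Igfbp2, and Igfbp3 overlapped in their SDs there. Among 12836 genes ranked by this level, Igfbp5 stood at rank 212 in control contralateral and rank 35 in control injured nerves, and Igfbp2 moved from rank 12376 to rank 865.

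**Figure D1:**
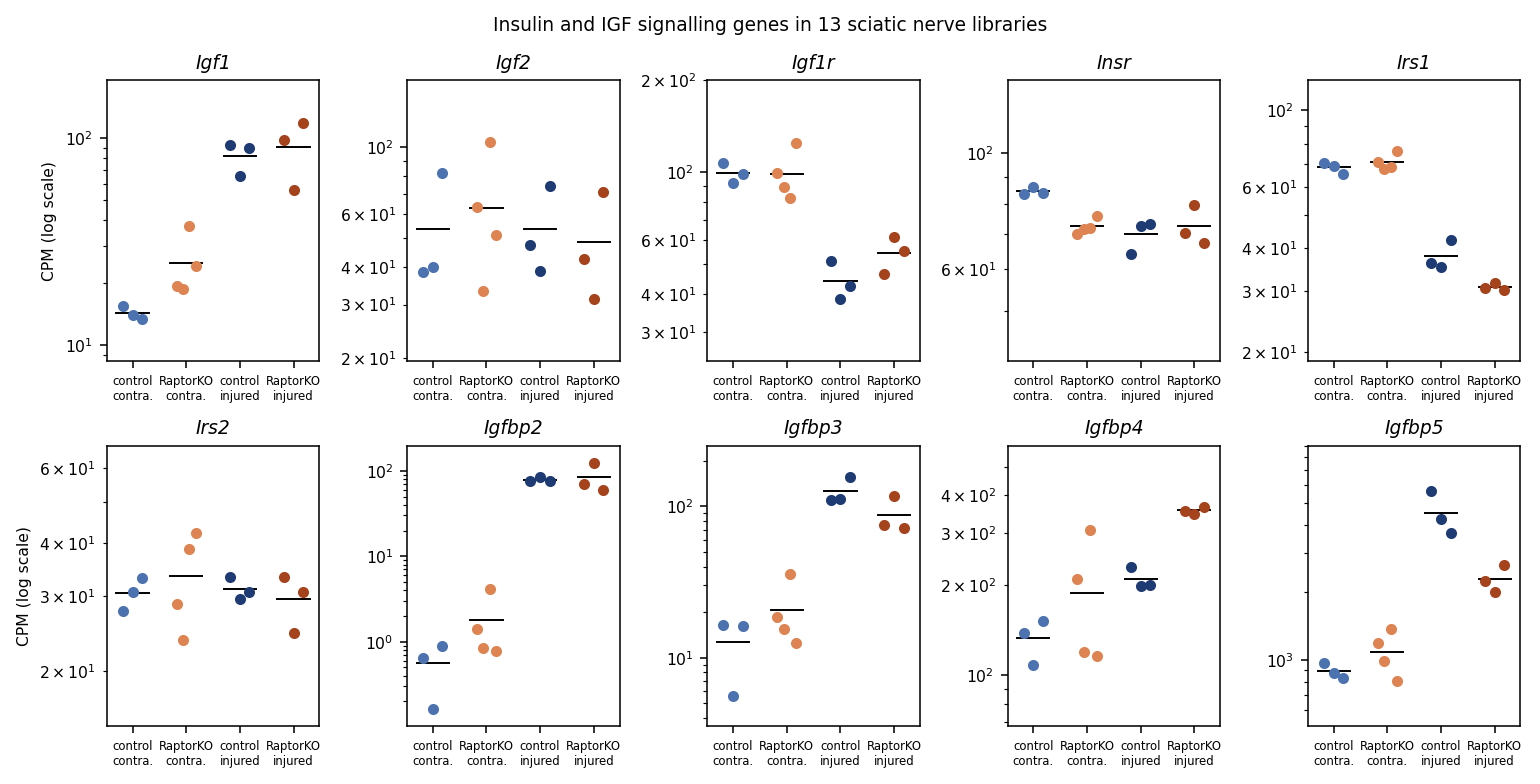
Level of each of the 10 genes in each of the 13 libraries, in CPM on a log scale that differs between panels; points are libraries and lines are group means. Igfbp2 lies between 0.163 and 4.1 CPM in all contralateral nerves and between 59.3 and 123 CPM in all injured nerves, and Igfbp5 lies between 2000 and 2660 CPM in RaptorKO injured nerves, below the 3660 to 5630 CPM of control injured nerves.

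The first question was how a crush changed these genes in each genotype. Differences were tested by the quasi-likelihood method of edgeR, p-values were adjusted for all tested genes after Benjamini and Hochberg, and calls needed an adjusted p under 0.05 and a change of more than 1.2-fold. In control nerves, 5 of the 10 members were called higher after injury (Igf1, Igfbp2, Igfbp3, Igfbp4, and Igfbp5), and 3 were called lower (Igf1r, Insr, and Irs1). Of all 12430 genes tested, 32.4% were called higher and 32.9% lower, so a call after injury was common in the nerve as a whole. In RaptorKO nerves, the same 5 members were called higher, and Igf1r and Irs1 were called lower, against 30.5% and 28.5% of 12515 genes. With library totals in place of TMM factors, the split of all calls moved from 4032 higher and 4087 lower to 5126 and 3176 in controls, and from 3811 and 3561 to 4708 and 2835 in RaptorKOs. Irs2 was not called in either genotype, and Igf2 was called lower in RaptorKOs only when the number shared by the nerves of a mouse was a term in the model. SC markers were called lower after injury for 8 of 10 in controls and for 7 of 10 in RaptorKOs, where 1 was called higher. Macrophage markers were higher in injured nerves, with a summed level of 168 to 191 CPM in control contralateral and 2610 to 3230 CPM in control injured nerves (10 of 10 markers called higher), and 275 to 365 and 1690 to 3490 CPM in RaptorKO nerves (9 of 10). The part of these cells in the changes of the members was not tested.

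**Figure D2:**
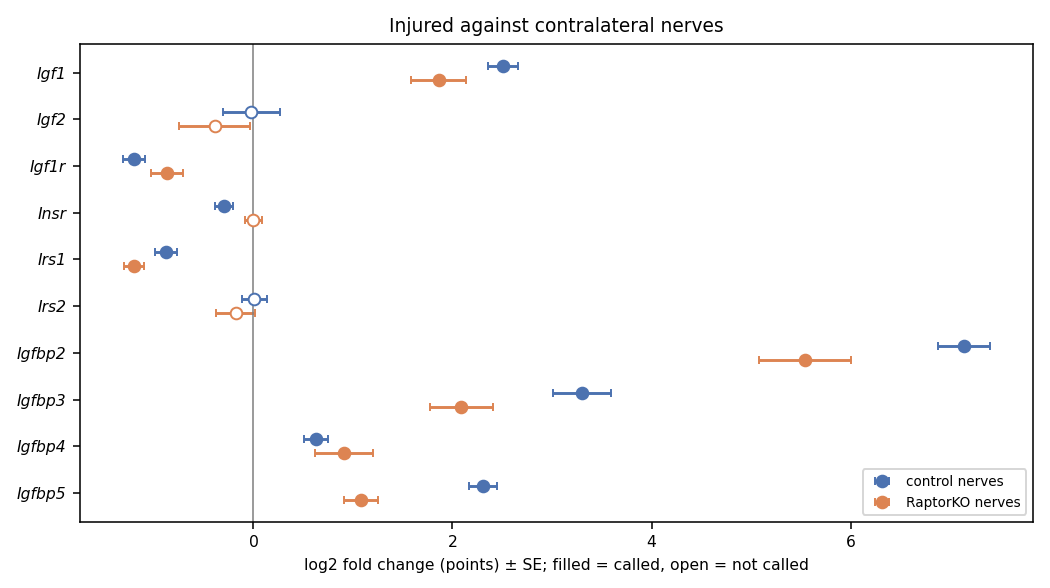
Log2 fold change of injured against contralateral nerves ± SE for each gene, in control (3 against 3 libraries) and RaptorKO nerves (3 against 4); filled points were called and open points were not. Igfbp2 lies farthest to the right in both genotypes (7.14 and 5.54), and Igfbp5 lies at 2.31 in control and 1.08 in RaptorKO nerves.

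The second question was how loss of Raptor altered the members in nerves of the same state. In injured nerves, Igfbp4 was the 1 member called higher in RaptorKOs and Igfbp5 the 1 member called lower, where 4.09% and 4.44% of 12040 tested genes were called. In contralateral nerves, Igf1 was the 1 member called higher of the 9 that passed the count filter, where 4.49% of 11878 genes were called. None was called lower there, where 5.68% of genes were. By edgeR's quasi-likelihood test, 1 of the 9, Insr, was lower at an unadjusted p below 0.05, and DESeq2 and the exact test of edgeR also called 0 members lower. The genotype comparison of injured nerves shares its control libraries with the injury comparison in controls, so these results are not independent.

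**Figure D3:**
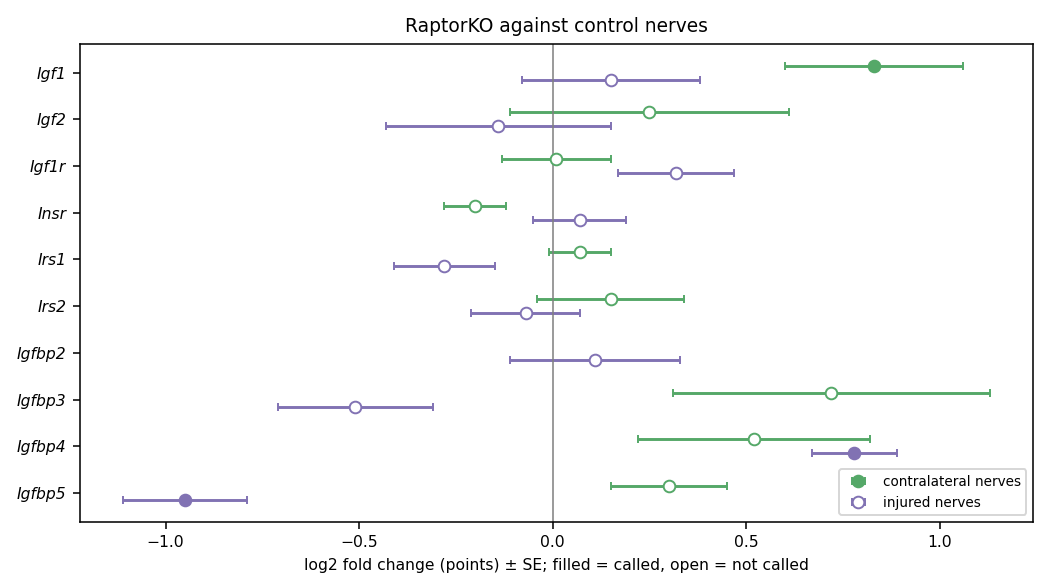
Log2 fold change of RaptorKO against control nerves ± SE for each gene, in contralateral (4 against 3 libraries) and injured nerves (3 against 3); filled points were called, and Igfbp2 has no contralateral point because its counts were too low to be tested. Igfbp5 lies at -0.95 and Igfbp4 at 0.78 in injured nerves, and Igf1 at 0.83 in contralateral nerves.

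Among the ligands, Igf1 was higher after injury, and Igf2 was called only in RaptorKOs and only within pairs of nerves. Igf1 (ENSMUSG00000020053) lies on chromosome 10 from 87858265 to 87937042 of GRCm38 on the + strand. It was at 15.4, 13.9, and 13.4 CPM in control contralateral and at 92.2, 65.5, and 89.5 CPM in control injured nerves. In RaptorKOs, the contralateral nerves were at 19.3, 18.6, 37.6, and 24.0 CPM and the injured nerves at 97.8, 56.0, and 119 CPM. Injured and contralateral nerves did not overlap in either genotype. Igf1 was 5.69-fold higher after injury in controls (log2 fold change 2.51 ± 0.15 SE, adjusted p = 2.86e-08) and 3.63-fold higher in RaptorKOs (1.86 ± 0.28, adjusted p = 2.29e-04).

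All 4 RaptorKO contralateral nerves held more Igf1 mRNA than all 3 control contralateral nerves, with a 1.77-fold difference (log2 fold change 0.83 ± 0.23, adjusted p = 0.0496). The call stood at the threshold and was lost without any 1 of 6 of the 7 libraries, with adjusted p-values of 0.0508 to 0.161. Replicate 3 of the RaptorKO contralateral nerves was highest, and without it the log2 fold change was 0.56. Macrophage markers, which mark cells known to express Igf1, were also higher in RaptorKO contralateral nerves: 6 of 8 tested markers were called, Cd163 among them at 26.3 to 29.8 CPM in controls and 48.9 to 71.9 CPM in RaptorKOs. Fibroblast markers summed to 6960 to 7870 CPM in controls and 10000 to 13600 CPM in RaptorKOs, with 4 of 10 called higher. Of all genes tested in contralateral nerves, 4.49% were called higher. The part of either cell type in the Igf1 difference was not tested. In injured nerves, Igf1 did not pass the test between genotypes (0.15 ± 0.23, adjusted p = 0.779), and the groups overlapped.

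Igf2 (ENSMUSG00000048583, chromosome 7 from 142650766 to 142666816, - strand) encodes the fetal growth factor IGF-II and is imprinted. It was at 38.6, 40.1, and 82.0 CPM in control contralateral and 47.4, 38.8, and 74.0 CPM in control injured nerves. In RaptorKOs, contralateral nerves were at 63.4, 33.4, 104, and 50.9 CPM and injured nerves at 42.6, 31.2, and 70.9 CPM. The library with number 3 was the highest of each of the 4 groups, and all groups overlapped. The summed level of adipocyte markers was also highest in number 3 in both contralateral groups (90.8 CPM in control and 291 CPM in RaptorKO nerves) and in control injured nerves (65.7 CPM), but not in RaptorKO injured nerves (14.4 CPM). Its part in the level of Igf2 was not tested. The log2 fold change after injury was -0.02 ± 0.29 in controls (adjusted p = 0.945) and -0.39 ± 0.36 in RaptorKOs (adjusted p = 0.376). Within RaptorKO pairs of equal number, the injured nerve held 0.672, 0.933, and 0.683 times the Igf2 of the contralateral nerve. With the number as a block, the log2 fold change in RaptorKOs was -0.42 ± 0.13 and was called (adjusted p = 0.0201), and in controls it was 0.00 ± 0.12 (adjusted p = 0.977). Between genotypes, it was 0.25 ± 0.36 in contralateral nerves (adjusted p = 0.727) and -0.14 ± 0.29 in injured nerves (adjusted p = 0.849). The gene Gm49394, not in the table, shares 3596 bp of exon with Igf2 on the same strand, so their reads cannot be separated.

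The share of Igf1 in the ligand mRNA per length was larger in injured than in contralateral nerves. Igf1 made up 14.7 ± 5.34% of Igf1 and Igf2 mRNA in control contralateral nerves (SD, n = 3) and 47.8 ± 6.04% in control injured nerves (SD, n = 3). In RaptorKOs, the share was 19.5 ± 4.18% in contralateral (SD, n = 4) and 52.4 ± 4.14% in injured nerves (SD, n = 3). No contralateral nerve exceeded 24.4%, and no injured nerve fell under 41.1%. The insulin genes themselves were not measurably expressed: Ins1 had 0 counts in all 13 libraries, which allows up to 3 counts in a library, and Ins2 was at 0.455 CPM in 1 library and at 0 counts in the other 12.

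Among the receptors, Igf1r was lower after injury in both genotypes. Igf1r (ENSMUSG00000005533, chromosome 7 from 67952827 to 68233668, + strand) was at 107, 92.1, and 99.0 CPM in control contralateral and 51.2, 38.6, and 42.3 CPM in control injured nerves. The contralateral nerves of RaptorKOs were at 99.1, 89.2, 82.2, and 125 CPM and RaptorKO injured nerves at 46.3, 61.5, and 55.4 CPM. Each injured nerve was below each contralateral nerve. The log2 fold change after injury was -1.2 ± 0.11 in controls (adjusted p = 1.97e-06) and -0.87 ± 0.16 in RaptorKOs (adjusted p = 7.57e-04). Between genotypes, Igf1r was not called in contralateral (0.01 ± 0.14, adjusted p = 0.978) or injured nerves (0.32 ± 0.15, adjusted p = 0.229), and the groups overlapped in both.

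Insr (ENSMUSG00000005534, chromosome 8 from 3122061 to 3279617, - strand), the insulin receptor, varied least among the receptors. It was at 83.4, 86.0, and 83.8 CPM in control contralateral and 64.1, 72.4, and 73.2 CPM in control injured nerves. RaptorKO contralateral nerves were at 70.1, 71.6, 72, and 75.8 CPM, and RaptorKO injured nerves were at 70.3, 79.4, and 67.4 CPM. The 3 control contralateral nerves thus lay above the other 10. In controls, Insr was lower after injury by a small amount (log2 fold change -0.30 ± 0.09, adjusted p = 0.0120), and the call was lost with library totals in place of TMM factors (-0.10, adjusted p = 0.363), with no count filter (-0.26, adjusted p = 0.0453, below the fold limit), and without control injured replicate 1 (-0.21, adjusted p = 0.0532). In RaptorKOs, the log2 fold change after injury was 0.00 ± 0.09 (adjusted p = 0.973). Between genotypes, Insr differed by -0.20 ± 0.08 in contralateral nerves, where the groups did not overlap but the test was not passed (adjusted p = 0.128), and by 0.07 ± 0.12 in injured nerves (adjusted p = 0.818).

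Igf1r accounted for 49.1 ± 2.31% of Igf1r and Insr mRNA per length in control contralateral nerves and 34.0 ± 4.86% in control injured nerves (SD, n = 3 each). In RaptorKO nerves, the shares were 52.5 ± 4.01% (SD, n = 4) and 38.0 ± 2.69% (SD, n = 3). Igf2r, the mannose 6-phosphate receptor that clears IGF-II, went the other way from Igf1r. It was at 38.5 to 42.7 CPM in control contralateral and 83.6 to 105 CPM in control injured nerves, a 2.22-fold rise (adjusted p = 1.72e-06), and rose 1.87-fold in RaptorKOs (adjusted p = 3.28e-05).

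Irs1 and Irs2 encode the main docking proteins of both receptors. Irs1 (ENSMUSG00000055980, chromosome 1 from 82233101 to 82291416, - strand) was at 70.5, 69.1, and 65.7 CPM in control contralateral and 36.3, 35.4, and 42.2 CPM in control injured nerves. In RaptorKOs, contralateral nerves were at 70.9, 67.6, 68.5, and 76.4 CPM and injured nerves at 30.7, 31.7, and 30.2 CPM. Irs1 fell after injury in both genotypes, with no overlap. The log2 fold change was -0.88 ± 0.11 in controls (adjusted p = 1.58e-05) and -1.2 ± 0.10 in RaptorKOs (adjusted p = 2.45e-06). In injured nerves, all 3 RaptorKO libraries lay below all 3 control libraries, but the difference did not pass the test (-0.28 ± 0.13, adjusted p = 0.231). In contralateral nerves, it was 0.07 ± 0.08 (adjusted p = 0.670).

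Irs2 (ENSMUSG00000038894, chromosome 8 from 10984681 to 11008458, - strand) was at 27.7, 30.6, and 33.1 CPM in control contralateral and 33.2, 29.5, and 30.7 CPM in control injured nerves. The contralateral nerves of RaptorKOs were at 28.8, 23.7, 38.7, and 42.3 CPM and RaptorKO injured nerves at 33.2, 24.5, and 30.7 CPM. All groups overlapped, and Irs2 passed no test. Its log2 fold changes were 0.01 ± 0.13 and -0.18 ± 0.20 after injury in controls and RaptorKOs (adjusted p = 0.961 and 0.471), and 0.15 ± 0.19 and -0.07 ± 0.14 between genotypes in contralateral and injured nerves (adjusted p = 0.689 and 0.861). Irs1 made up 60.9 ± 2.98% of Irs1 and Irs2 mRNA per length in control contralateral nerves and 45.7 ± 2.84% in control injured nerves (SD, n = 3 each), and 60 ± 5.58% (SD, n = 4) and 42.2 ± 4.36% (SD, n = 3) in RaptorKOs. Irs3, a further substrate gene, was at 3.18 to 10.9 CPM in contralateral and 0.55 to 1.28 CPM in injured nerves. It fell by 3.0 on the log2 scale in each genotype, but passed the count filter through the contralateral nerves. This fall rests on few counts in the injured nerves. Irs4 was at or near 0 throughout.

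Among the members, Igfbp2 and Igfbp3 changed most after injury in both genotypes. The binding proteins Igfbp2, Igfbp3, Igfbp4, and Igfbp5 were each called higher after injury in both genotypes. Since these 4 genes moved in one direction after injury, the stretch just before their start sites is shown from RefSeq for GRCm38.p6. Each runs from 110 to 21 bases before an annotated start, 5′ to 3′ on the strand of the gene, and capitals mark a TATA-like motif (TATAAA, or TATATA, or else TATTTAA), with forms chosen after the sequences were seen. Igfbp2 is chr1:72824370-72824459 on the + strand, Igfbp3 is chr11:7213944-7214033 on the - strand, Igfbp4 is chr11:99041134-99041223 on the + strand, and Igfbp5 is chr1:72874886-72874975 on the - strand.
Igfbp2: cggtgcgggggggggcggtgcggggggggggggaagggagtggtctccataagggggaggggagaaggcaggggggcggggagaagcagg
Igfbp3: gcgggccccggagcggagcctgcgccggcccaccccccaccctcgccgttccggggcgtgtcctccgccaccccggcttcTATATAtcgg
Igfbp4: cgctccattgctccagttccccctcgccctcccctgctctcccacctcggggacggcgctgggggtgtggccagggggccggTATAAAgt
Igfbp5: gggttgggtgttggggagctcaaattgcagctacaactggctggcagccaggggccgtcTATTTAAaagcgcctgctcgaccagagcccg

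Igfbp3, Igfbp4, and Igfbp5 each held 1 of these forms on the forward strand, and Igfbp2 held none. Of 32851 promoter windows of this length, 5.92% held at least 1. Because the forms were chosen from these same sequences, that share cannot serve as a test of the matches. In 300-base windows around the starts, 9 of the 10 members had an entry, with 13 promoters among them. TGANTCA, the letters of an AP-1 site, were found for Igf1 and for a second promoter of Igfbp2, compared with 7.81% of all promoters on either strand. CACGTG, an E-box, was found for Irs1, Irs2, and Igfbp2 (7.15% of all promoters), and GTAAACA, the core of forkhead factor sites, was found for none (3.65%). A match describes letters in a window and was not tested as a binding site.

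Igfbp2 (ENSMUSG00000039323, chromosome 1 from 72824503 to 72852474, + strand) went from near absence to a well expressed gene. Control contralateral nerves held 7, 2, and 9 counts, or 0.637, 0.163, and 0.879 CPM, and control injured nerves were at 75.6, 85.5, and 76.0 CPM. RaptorKO contralateral nerves were at 1.39, 0.84, 4.10, and 0.773 CPM and RaptorKO injured nerves at 70.0, 123, and 59.3 CPM. The injured nerves were far above all contralateral nerves. Igfbp2 was 141-fold higher after injury in controls (log2 fold change 7.14 ± 0.26, adjusted p = 4.52e-10) and 46.5-fold higher in RaptorKOs (5.54 ± 0.46, adjusted p = 2.44e-06), and these folds rest on few counts in the contralateral nerves. Without RaptorKO contralateral replicate 3, which held the most Igfbp2 of the contralateral nerves, the log2 fold change in RaptorKOs was 6.37. Over 15 alternatives, it ranged from 5.16 to 6.37 in RaptorKOs and from 6.66 to 7.64 in controls. Between genotypes, the log2 fold change was 0.11 ± 0.22 in injured nerves (adjusted p = 0.845), and in contralateral nerves Igfbp2 was too low to be tested.

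Igfbp3 (ENSMUSG00000020427, chromosome 11 from 7206086 to 7213923, - strand), which in blood is the main carrier of IGFs, was at 16.4, 5.63, and 16.1 CPM in control contralateral and 110, 111, and 157 CPM in control injured nerves. In RaptorKOs, contralateral nerves were at 18.6, 15.4, 35.6, and 12.5 CPM and injured nerves at 74.7, 117, and 71.5 CPM. Injured and contralateral nerves did not overlap. The rise was 9.86-fold in controls (3.30 ± 0.29, adjusted p = 1.09e-06) and 4.25-fold in RaptorKOs (2.09 ± 0.32, adjusted p = 2.17e-04). Of the 3 RaptorKO injured nerves, 2 lay below all controls and 1 lay among them, and the genotype difference was not called in injured (-0.51 ± 0.20, adjusted p = 0.166) or contralateral nerves (0.72 ± 0.41, adjusted p = 0.310). Without RaptorKO injured replicate 2, the difference in injured nerves was called (-0.78, adjusted p = 0.00863).

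Igfbp4 (ENSMUSG00000017493, chromosome 11 from 99041244 to 99054392, + strand) encodes a binding protein that withholds IGF from its receptor until it is cut. It was at 139, 108, and 152 CPM in control contralateral and 230, 199, and 201 CPM in control injured nerves. The contralateral nerves of RaptorKOs were at 211, 120, 306, and 116 CPM and RaptorKO injured nerves at 356, 346, and 367 CPM. The RaptorKO injured nerves were the highest of all and close to each other, whereas the RaptorKO contralateral nerves spread widely and overlapped the controls. After injury, Igfbp4 was higher in controls (0.63 ± 0.12, adjusted p = 6.60e-04) and in RaptorKOs (0.91 ± 0.29, adjusted p = 0.0186). In injured nerves, it was 1.71-fold higher in RaptorKOs than in controls (0.78 ± 0.11, adjusted p = 0.00157), and this call was lost with all 13 libraries in 1 model (0.76, adjusted p = 0.0922). In contralateral nerves, the difference was 0.52 ± 0.30 (adjusted p = 0.317).

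Igfbp5 (ENSMUSG00000026185, chromosome 1 from 72857932 to 72874884, - strand) was the most abundant member in every group. It lies tail to tail with Igfbp2, with 5457 bp and no annotated gene between them. It was at 974, 871, and 829 CPM in control contralateral and 5630, 4240, and 3660 CPM in control injured nerves. RaptorKO contralateral nerves were at 1190, 988, 1370, and 809 CPM and RaptorKO injured nerves at 2250, 2000, and 2660 CPM. All RaptorKO injured nerves lay above all contralateral nerves and below all control injured nerves. Igfbp5 was 4.97-fold higher after injury in controls (2.31 ± 0.14, adjusted p = 4.18e-08) and 2.11-fold higher in RaptorKOs (1.08 ± 0.17, adjusted p = 2.90e-04).

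In injured nerves, Igfbp5 was at 0.516 times the control level in RaptorKOs (-0.95 ± 0.16, adjusted p = 0.00485), and in contralateral nerves it did not pass the test (0.30 ± 0.15, adjusted p = 0.247), but was called higher without RaptorKO contralateral replicate 4 (0.42, adjusted p = 0.0473). Whether the effect of genotype differed between injured and contralateral nerves was tested as an interaction over all 13 libraries. Igfbp5 was the 1 member called, with an interaction of -1.26 ± 0.25 on the log2 scale (adjusted p = 0.0181), where 1.41% of 12851 tested genes were called lower and 1.07% higher. The call was lost without control contralateral replicate 2 (-1.24, adjusted p = 0.0540) or replicate 3 (-1.21, adjusted p = 0.0533). No member was called higher by edgeR's quasi-likelihood test or by DESeq2, and 1, Insr, was higher at an unadjusted p below 0.05. The interactions of Igfbp2 (-1.62 ± 0.77, adjusted p = 0.360), Igfbp3 (-1.23 ± 0.51, adjusted p = 0.277), and Igfbp4 (0.26 ± 0.37, adjusted p = 0.833) were not called.

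Several cell type markers differed between the genotypes in injured nerves, beside the calls for Igfbp4 and Igfbp5. Of all tested genes, 4.09% were called higher and 4.44% lower in this comparison. Erythrocyte markers were called higher in RaptorKO injured nerves for 2 of 2 tested, with 2.28 to 14.4 CPM summed in controls and 25.2 to 44.2 CPM in RaptorKOs. Of the endothelial markers, 7 of 8 were called higher in RaptorKO injured nerves, with 264 to 413 CPM summed in controls and 497 to 781 CPM in RaptorKOs. Pericyte and vascular smooth muscle markers were higher for 5 of 6 tested (436 to 560 against 804 to 1170 CPM), mast cell markers for 5 of 6 (8.71 to 52.7 against 107 to 199 CPM), and fibroblast markers for 3 of 9 (7450 to 12200 against 9470 to 15800 CPM). SC markers were lower for 3 of 10, at 4560 to 5190 CPM in controls and 3200 to 3820 CPM in RaptorKOs, and 0 of 10 macrophage markers were called by edgeR's quasi-likelihood test. The part of these cells in the levels of Igfbp4 and Igfbp5 was not tested.

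The makeup of the binding protein mRNA pool was set by Igfbp5, Igfbp6, and Igfbp7. Igfbp6, which prefers IGF-II, and Igfbp7, a related secreted protein that binds IGFs weakly, are not members but complete the pool. Igfbp6 was at 272 to 851 CPM in contralateral and 33.5 to 81.1 CPM in injured nerves and fell by 2.83 on the log2 scale in both genotypes (adjusted p = 2.16e-06 in controls and 7.50e-05 in RaptorKOs). Per length, Igfbp5 made up 22.2 ± 4.51% of Igfbp2 to Igfbp7 mRNA in control contralateral nerves and 65.7 ± 7.30% in control injured nerves (SD, n = 3 each). In RaptorKOs, its share was 21.6 ± 4.40% in contralateral (SD, n = 4) and 42.2 ± 5.74% in injured nerves (SD, n = 3). The share of Igfbp4 was 3.98 to 4.33% in control injured and 8.37 to 9.64% in RaptorKO injured nerves, against 4.25 to 5.01% in all contralateral nerves. Igfbp7 made up 14.5 to 22.9% in control injured and 30.9 to 38.5% in RaptorKO injured nerves, and its level was 1.52-fold higher in RaptorKO than in control injured nerves (adjusted p = 0.0350). A share within a library does not depend on scaling between libraries, but a fall of one gene raises the shares of the others. Summed over the 6 genes, the level was 1040 to 1300 CPM per kb in control injured and 837 to 955 CPM per kb in RaptorKO injured nerves.

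**Figure D4:**
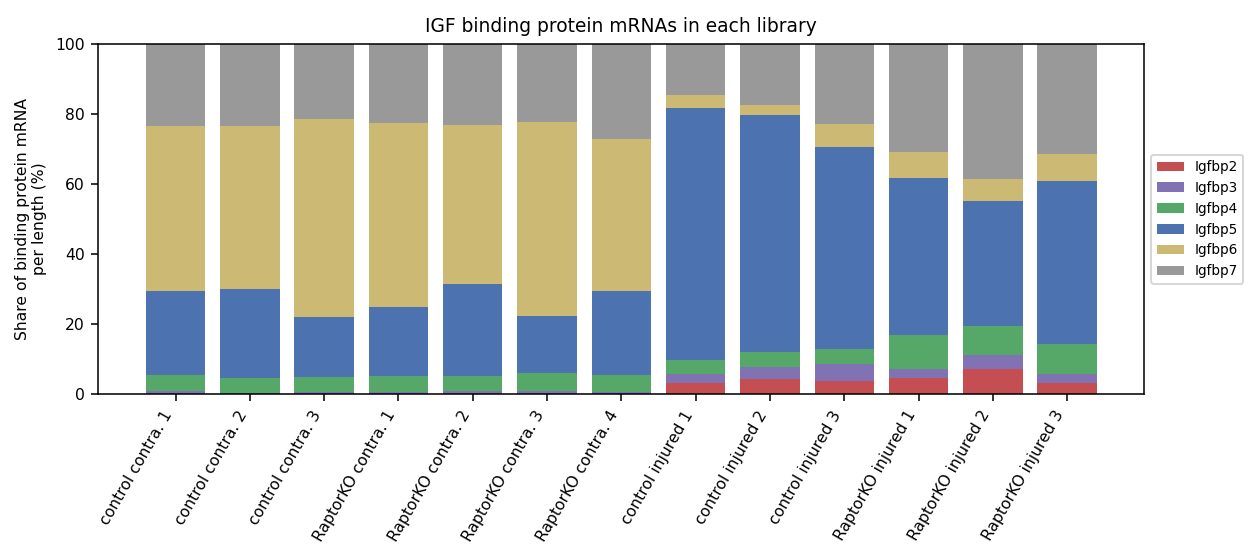
Share of each binding protein gene in the summed level of Igfbp2 to Igfbp7 per kilobase of exon, in percent, 1 bar per library. Igfbp6 makes up 43.5 to 56.5% of the pool in contralateral nerves, and Igfbp5 makes up 57.7 to 71.9% in control injured and 35.7 to 46.4% in RaptorKO injured nerves.

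Proteases that free IGFs by cutting binding proteins were measured with them. Pappa, which encodes the protease of IGFBP4 and IGFBP5 PAPP-A, was at 1.46 to 3.55 CPM in control contralateral nerves and at 11.1, 16.4, and 6.56 CPM in control injured nerves. RaptorKO contralateral nerves were at 1.81 to 2.57 CPM, and RaptorKO injured nerves were at 3.47, 4.40, and 2.65 CPM, below every control injured nerve. Pappa rose after injury in controls (2.11 ± 0.39, adjusted p = 4.99e-04) and was lower in RaptorKO than in control injured nerves (-1.67 ± 0.35, adjusted p = 0.0146). It passed the count filter through the control injured nerves and had few counts elsewhere, and its change after injury in RaptorKOs was not tested. Adam12, a metalloprotease of IGFBP3 and IGFBP5, was higher in RaptorKOs in contralateral (1.29 ± 0.30, adjusted p = 0.0234) and injured nerves (0.77 ± 0.18, adjusted p = 0.0253). It was at 2.25 to 5.14 CPM in control and 7.09 to 10.8 CPM in RaptorKO contralateral nerves. In that comparison, Adam12 passed the count filter through the RaptorKO nerves and had few counts in controls. Htra3, a serine protease, was at 27.1 to 28.8 CPM in control contralateral and 43.0 to 70.4 CPM in RaptorKO contralateral nerves (0.91 ± 0.17, adjusted p = 0.00712), and its interaction was called (-1.42).

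The other genes of the pathway, 89 on 7 hand-written lists with the members left out, were tested in the same models. After injury, 24 of 71 tested genes were called higher and 33 lower in controls, where 32.4% and 32.9% of all tested genes were called. In RaptorKOs, 17 and 30 of 71 were called, against 30.5% and 28.5% of all tested genes. The median log2 fold change was -0.23 in controls and -0.18 in RaptorKOs, against 0.00 and 0.03 over all tested genes. Between genotypes, 4 were higher and 5 lower of 70 in injured nerves, where 4.09% and 4.44% of all tested genes were called, and 5 higher and 8 lower of 70 in contralateral nerves, where 4.49% and 5.68% were called. For the interaction, 2 of 73 were called lower, Htra3 and Grb14, and 0 higher by edgeR's quasi-likelihood test.

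Adaptors and feedback inhibitors split in direction after injury. Of 15 tested in controls, 8 were higher and 7 lower, where 32.4% and 32.9% of all tested genes were called. Sh2b2, an adaptor of the insulin receptor, was at 0.489 to 1.27 CPM in control contralateral and 11.8 to 14.3 CPM in control injured nerves. Its 14.1-fold rise rests on few counts in the contralateral nerves. Socs3, an inducible inhibitor of cytokine and insulin signalling, rose 3.96-fold, to 61.6 to 76.0 CPM. Grb14, an inhibitor of the insulin receptor kinase, was at 69.6 to 80.6 CPM in all contralateral nerves, at 19.5, 19, and 19.2 CPM in control injured nerves, and at 13.8, 11.7, and 10.6 CPM in RaptorKO injured nerves. It fell after injury in both genotypes (-2.01 and -2.71) and was lower in RaptorKO than in control injured nerves (-0.66 ± 0.17, adjusted p = 0.0345). Between genotypes in contralateral nerves, 1 of 13 tested genes of the list was called, where 4.49% of all tested genes were higher and 5.68% lower. This gene, Enpp1, encodes an inhibitor of the insulin receptor and was lower in RaptorKOs (-0.60 ± 0.14, adjusted p = 0.0259).

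In the PI3K and Akt list, 12 of 23 genes were lower and 4 higher after injury in controls, and 10 and 3 in RaptorKOs. Of all tested genes, 32.9% were called lower and 32.4% higher in controls, and 28.5% and 30.5% in RaptorKOs. Pik3r1, which encodes the main regulatory subunit of PI3K, was at 670, 705, and 616 CPM in control contralateral and 471, 460, 466, and 473 CPM in RaptorKO contralateral nerves. It was lower in RaptorKOs in contralateral (-0.49 ± 0.07, adjusted p = 0.00245) and injured nerves (-0.37 ± 0.10, adjusted p = 0.0456), without overlap in either. Foxo4, encoding a FOXO factor restrained by Akt, was at 114 to 132 CPM in control and 68.1 to 94.8 CPM in RaptorKO contralateral nerves (-0.64 ± 0.12, adjusted p = 0.00783). SC markers were also lower in RaptorKOs, for 4 of 10 in contralateral and 3 of 10 in injured nerves. Of all tested genes, 5.68% were called lower in contralateral and 4.44% in injured nerves. The part of SCs in the levels of Pik3r1 and Foxo4 was not tested. Inpp5d, a phosphatase gene of blood cells, was higher in RaptorKO contralateral nerves (0.81 ± 0.23, adjusted p = 0.0464), where macrophage markers were also higher. The part of macrophages in the level of Inpp5d was not tested. Inpp4b was higher in RaptorKO injured nerves (0.91 ± 0.24, adjusted p = 0.0360).

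FOXO target genes, which fall when Akt signals, were lower in RaptorKO contralateral nerves for 5 of 15 tested and higher for 0 by edgeR's quasi-likelihood test. Of all genes tested there, 5.68% were called lower and 4.49% higher. The median log2 fold change of the list was -0.22 against 0.01 over all tested genes. SC markers were also lower in RaptorKO contralateral nerves for 4 of 10, with a median of -0.23. The part of SCs in the levels of the FOXO target genes was not tested. Pdk4, a brake on glucose oxidation, was at 99.3, 81.1, and 99.3 CPM in controls against 50.6, 43.7, 51.9, and 55.3 CPM in RaptorKOs (-0.87 ± 0.11, adjusted p = 6.85e-04). Sesn3, a stress-inducible sestrin that restrains mTORC1, was at 126, 147, and 143 CPM in controls against 75.7, 59.8, 69.6, and 79.1 CPM in RaptorKOs (-0.95 ± 0.11, adjusted p = 3.40e-04). Neither gene overlapped between the genotypes. Sesn1 was also lower (-0.65 ± 0.09, adjusted p = 0.00117), as were Ccng2 and Cdkn1b, which encode cell cycle inhibitors (-0.42 each). In injured nerves, 2 of 15 were lower in RaptorKOs, where 4.44% of all tested genes were called lower. These were Sesn3 (-0.65 ± 0.13, adjusted p = 0.0133) and Gadd45a, a growth arrest and DNA damage gene (-1.25 ± 0.22, adjusted p = 0.00536). Gadd45a was at 207, 200, and 249 CPM in control injured and 71.3, 130, and 70.1 CPM in RaptorKO injured nerves. It had risen 27.6-fold after injury in controls, the opposite direction to Klf15, Pdk4, and Sesn1 of the list, which fell by 3.67, 3.21, and 2.55 on the log2 scale.

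**Figure D5:**
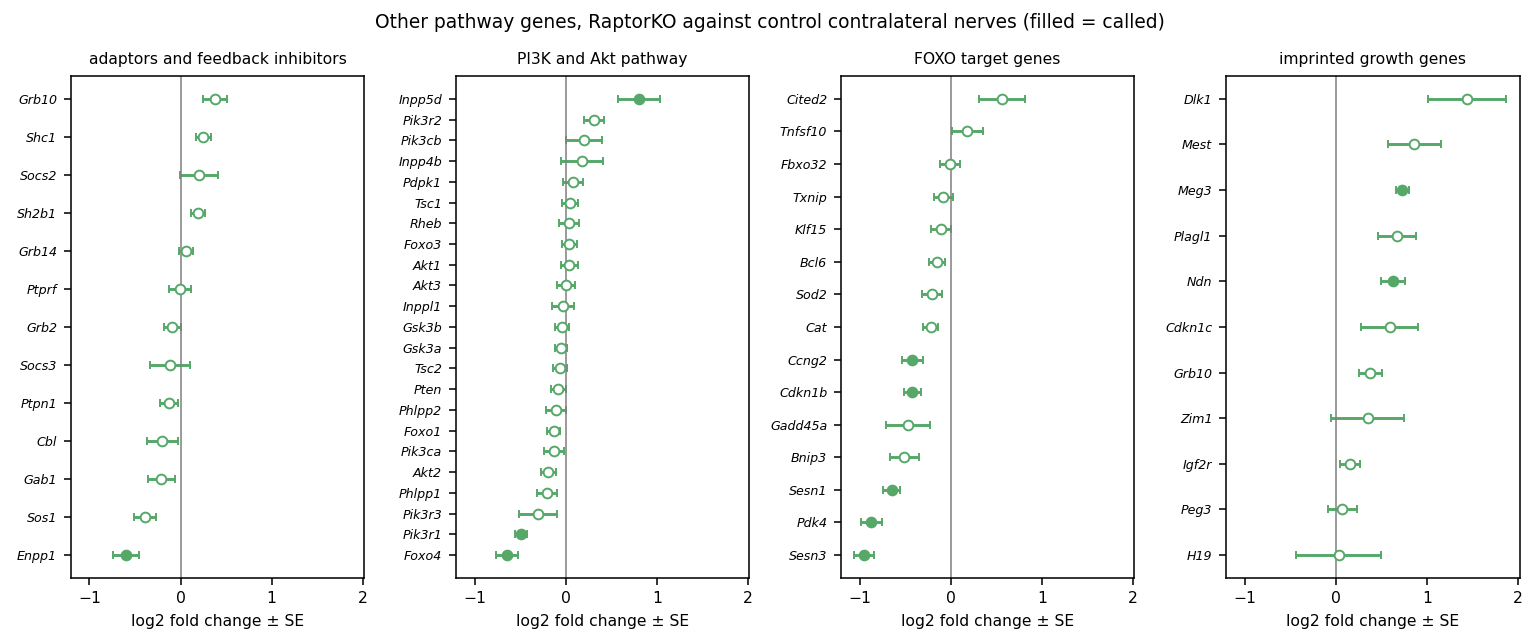
Log2 fold change of RaptorKO against control contralateral nerves ± SE for the tested genes of 4 pathway lists, ordered by value; filled points were called. In the FOXO list the 5 called genes lie at or below -0.42, and in the PI3K and Akt list Pik3r1 (-0.49) and Foxo4 (-0.64) are called lower and Inpp5d (0.81) higher.

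Imprinted growth genes were listed because Igf2 belongs to this class. H19, which shares its imprinting control with Igf2, was at 62.1 to 144 CPM in control contralateral and 285 to 315 CPM in control injured nerves and rose 2.96-fold (adjusted p = 6.64e-05), and it rose 3.70-fold in RaptorKOs (adjusted p = 0.00495), while Igf2 was called in neither without the block. Meg3, a maternally expressed noncoding RNA, was at 82.2, 86.9, and 91.6 CPM in control contralateral and 137, 145, 146, and 142 CPM in RaptorKO contralateral nerves (0.73 ± 0.07, adjusted p = 1.96e-04). It was also higher in RaptorKO injured nerves (0.81 ± 0.10, adjusted p = 0.00110), with no overlap in either state. Ndn was higher in RaptorKO contralateral nerves (0.63 ± 0.13, adjusted p = 0.0120), and these were the 2 genes called of the 11 tested there. Of all tested genes, 4.49% were called higher and 5.68% lower in that comparison. The median over the 11 was 0.59 in that comparison, against 0.01 over all tested genes, 0.77 over the 10 fibroblast markers (4 called higher), and 0.91 over the 8 tested macrophage markers (6 called higher). The part of these cells in the level of the imprinted genes was not tested. Of the 3 Igf2 mRNA binding proteins, Igf2bp2 was the 1 tested and was higher after injury (1.46 in controls and 1.33 in RaptorKOs).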

How the data were processed

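Nerves were measured by RNA sequencing. The authors cleaned reads with Trimmomatic and used RSEM 1.2.22 with GRCm38 for alignment and quantification. The deposited values are expected counts per gene and library, not normalized, of which 24.93 to 27.95% were not whole. They were rounded here. RSEM shares reads among genes that match equally, and whether strand was used in counting is not given in the sources used here.

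Tests ran in R 4.3.3 (DESeq2 1.42.0, limma 3.58.1, edgeR 4.0.16), and figures were made in Python 3.11.15 with matplotlib 3.10.9. Only the groups compared entered a model, except the interaction (all 13 libraries). Genes with at least 50 counts in at least 2 libraries of a comparison were tested with edgeR's quasi-likelihood test after TMM scaling, and all tested genes entered the Benjamini-Hochberg adjustment. Scripts were tested on simulated counts. Levels are CPM with TMM factors over all 13 libraries, and levels per kb use merged exon length in GENCODE M21, which held 40634 of the 40787 genes by ID. Promoters are from RefSeq (GRCm38.p6).

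Members and lists were chosen with earlier results of these data known. All members were named, and of each pathway list up to 3 called genes in each direction with the largest changes; a few others were named after their values were seen (Htra3 and Grb14 interactions, Ccng2, Cdkn1b, Cd163, Irs4). Alternatives were other scaling, DESeq2, edgeR's exact test, no count filter, no fold limit, all libraries in 1 model, a replicate block, and leaving out libraries. Injured and contralateral nerves of equal number in a genotype were taken as pairs, from their titles and the study's description. Deviations from the group means correlated over 0.1 in 4 of 6 pairs. Contralateral nerves of equal number but different genotype, which are different mice, correlated at 0.072, 0.254, and 0.301. Such values therefore cannot show which nerves are pairs, and the block stayed an alternative. Only the control libraries with replicate number 3 held many Xist and few Y-linked counts, the pattern of a female mouse. No RaptorKO library had this pattern, so sex and genotype were not balanced. Sex was not a term in any model. Some items that these rules select are not reported here.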

Additional observations from a re-analysis of the deposited data

Results flagged for a closer look

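The genotype effect on Igfbp5 differed between injured and contralateral nerves in a test of the difference itself. The interaction was -1.26 ± 0.25 on the log2 scale (edgeR, Benjamini-Hochberg adjusted p = 0.0181), with a genotype effect of -0.95 in injured and 0.30 in contralateral nerves. In models of each genotype alone, the injury effect was 1.08 in RaptorKO and 2.31 in control nerves. Over 20 alternatives, it ranged from -1.39 to -1.08, with adjusted p-values of 1.86e-05 to 0.0540. Within the pairs of nerves that carry the same number, the ratio of injured to contralateral CPM was 5.78, 4.87, and 4.42 in controls and 1.89, 2.03, and 1.94 in RaptorKOs.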

How the results depend on the processing

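Depth limited Igfbp2 most (2 to 43 counts in contralateral nerves). The calls of Igf1, Igf1r, Irs1, Igfbp2, Igfbp3, Igfbp4, and Igfbp5 after injury held under every alternative run in both genotypes. In injured nerves, 2 members were lower with no count filter (Igfbp3 added), and 0 higher with all libraries in 1 model. In contralateral nerves, 0 were higher with DESeq2 size factors (Igf1, adjusted p = 0.0507) or all libraries in 1 model (0.0696). Igfbp2, with no count filter, was at 1.67 ± 0.75 there (adjusted p = 0.257, edgeR).

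Leaving out single libraries gave 5 higher and 2 to 3 lower members after injury in controls, 5 and 2 in RaptorKOs, 1 higher and 1 to 2 lower between genotypes in injured nerves, 0 to 1 higher and 0 lower in contralateral nerves (Igf1, or Igfbp5 without RaptorKO replicate 4), and 0 higher and 0 to 1 lower for the interaction. All-gene counts fell by more than 1.5 times when some single libraries were left out, and rose from 493 to 856 higher in injured nerves with no count filter and from 137 higher and 181 lower to 245 and 353 for the interaction with DESeq2. Without both control libraries numbered 3, the interaction counts were 51 and 62. Library totals moved the median of all genes to 0.20 and 0.19 in the injury comparisons of controls and RaptorKOs.

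Deviations of same-numbered libraries correlated at 0.067, 0.129, and 0.305 between injured and contralateral nerves in controls and at -0.024, 0.211, and 0.168 in RaptorKOs. They correlated at 0.027, 0.014, and -0.050 between genotypes in injured nerves, and at 0.072, 0.254, and 0.301 in contralateral nerves, where the numbers mark different mice and pair nothing. With the replicate block between genotypes, 4 members were higher in RaptorKO contralateral nerves (Igf1, Igfbp3 at 0.92, Igfbp4 at 0.61, and Igfbp5 at 0.41), 880 genes against 533, and Igf2 was lower after injury in RaptorKOs (-0.42, adjusted p = 0.0201, edgeR). With the replicate block, 5 members were higher and 3 lower after injury in each genotype, 1 higher and 1 lower between genotypes in injured nerves, and 1 lower for the interaction, and the block changed no call of a member after injury other than that of Igf2 in RaptorKOs.

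Signs changed only for members that were not called. After injury in controls, Igf2 went to 0.17 with library totals, 0.01 with no count filter, 0.00 with the replicate block, and 0.11 without both control libraries numbered 3, and to -0.32 to 0.41 without single libraries (0.08 and 0.18 among them), and Irs2 to -0.06 to 0.06 (-0.01 among them). In RaptorKOs, Insr went to 0.16 with library totals, 0.02 with no count filter and with the replicate block, and -0.07 to 0.04 (0.01 among them) without single libraries. Between genotypes without single injured libraries, Igf1 ranged from -0.08 to 0.40, Igf2 from -0.52 to 0.17 (0.10 among them), Insr from -0.01 to 0.12 (0.00 among them), Irs2 from -0.16 to 0.05, and Igfbp2 from -0.28 to 0.31. In contralateral nerves, Igf1r went to -0.13 with the replicate block to 0.00 with no count filter and with all libraries in 1 model, and to -0.13 to 0.09 (-0.04 among them) without single libraries, Irs2 went to -0.01 with the replicate block, and Igf2 to -0.10 to 0.70 without single libraries.

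By counts in place of counts per length, the shares in control contralateral, RaptorKO contralateral, control injured, and RaptorKO injured nerves were 22.7, 29.4, 61.2, and 65.5% for Igf1, 54.1, 57.4, 38.6, and 42.8% for Igf1r, 69.2, 68.4, 54.9, and 51.3% for Irs1, and 55.6, 54.4, 85.9, and 70.1% for Igfbp5, which follows from the lengths of the genes.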

Other observations

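Genes whose pattern over the 13 libraries was most like that of a member were listed for the 3 members with the widest range of group means (Igfbp2, Igfbp3, and Igf1, with ranges of 6.90, 3.42, and 2.59 in log2 CPM). Likeness was the root mean square difference of log2 CPM after each gene was centred on its mean, over 12851 genes. For Igfbp2, the nearest were Ndc80, a kinetochore gene (0.62), Gdnf, a neurotrophic factor gene (0.63), and Fgf5, a growth factor gene (0.70). For Igfbp3, they were Adamts1, a secreted metalloprotease gene (0.36), Pdlim1 (0.40), and Specc1 (0.40). For Igf1, they included Cebpa, a transcription factor gene of myeloid and fat cells (0.20), and Rab7b (0.22). These values are descriptions over libraries that fall into injured and contralateral groups.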
